A study of Mus musculus with 12 samples.

Results

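The genes described here are 10 that carry out or control de novo fatty acid synthesis: Acly, Me1, Acaca, Acacb, Fasn, Scd1, Elovl6, Srebf1, Mlxipl and Thrsp. They were taken by name from a deposited table of 54532 genes. All 10 are among the 9743 genes tested, those averaging 1 FPKM or more across the 12 libraries. FPKM counts fragments per kilobase of gene length, scaled to a size set for each library, so levels of different genes are compared per length. The libraries came from primary hepatocytes of 6-week-old mice, with 3 libraries in each of 4 groups. HKO_PA and HKO_BSA are cells with a hepatocyte-specific G3bp1 knockout given PA or BSA, and Flox_PA and Flox_BSA are G3bp1-Flox cells given PA or BSA. The series text gives the question as the role of G3BP1, which binds RNA in stress granules, in NASH, an inflammatory fatty liver disease. PA and BSA are not spelled out in the labels. The sources used here give neither their dose and duration, nor the driver of the knockout, nor how many mice stand behind a group. The p-values therefore measure only the spread between these libraries, which may be technical.

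De novo fatty acid synthesis turns surplus carbohydrate into fat. ATP citrate lyase (Acly) makes cytosolic acetyl-CoA from citrate, the acetyl-CoA carboxylases (Acaca and Acacb) turn it into malonyl-CoA, and fatty acid synthase (Fasn) builds palmitate from both with NADPH, part of which comes from malic enzyme (Me1), before Elovl6 lengthens the chain and Scd1 adds a double bond. In liver the genes of these enzymes are known targets of SREBP (Srebf1), which acts downstream of insulin, and of ChREBP (Mlxipl), which acts downstream of glucose.

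G3bp1 was reduced in every HKO library, at 7.03, 7.39 and 8.09 FPKM in HKO_PA, 7.77, 8.48 and 8.50 FPKM in HKO_BSA, 39.1, 39.0 and 41.6 FPKM in Flox_PA, and 40.0, 37.7 and 45.7 FPKM in Flox_BSA. Reads in genes, computed from FPKM and gene length, ranged from 15020982 to 18418586 per library. The median absolute deviation (log2) of a gene from the mean of its group's other libraries was 0.151 to 0.317 in the 6 HKO libraries. In the 6 Flox libraries it was 0.0897 to 0.129. The highest values were those of HKO_PA 1 (0.317) and HKO_BSA 1 (0.307). The 8 hepatocyte markers summed to 11340 to 20850 FPKM in HKO_PA, 10420 to 20400 FPKM in HKO_BSA, 7461 to 8227 FPKM in Flox_PA and 7956 to 8708 FPKM in Flox_BSA. Much of the sum was Alb, with means of 7767 FPKM in HKO_PA, 11250 in HKO_BSA, 3260 in Flox_PA and 4311 in Flox_BSA. In HKO against Flox, 4 of the 8 rose in PA and 3 in BSA, and 0 fell. Rose and fell stand for an adjusted p under 0.05 (limma), as set out below. Of all tested genes, 16.9% rose and 18.8% fell in PA, and 9.63% rose and 10.8% fell in BSA. The 10 Kupffer cell and macrophage markers, none at 0, summed to 109 to 133.2 FPKM in HKO_PA, 70.94 to 88.45 FPKM in HKO_BSA, 1301 to 1503 FPKM in Flox_PA and 1492 to 1658 FPKM in Flox_BSA, and 10 of 10 fell in HKO against Flox both in PA and in BSA. The 5 neutrophil markers summed to at most 0.738 FPKM in HKO_PA, 0.514 FPKM in HKO_BSA, 25.5 FPKM in Flox_PA and 21.3 FPKM in Flox_BSA. In bulk libraries fewer cells of a type and less RNA per cell cannot be told apart. The part of the macrophage and neutrophil markers in any difference between HKO and Flox below was not tested.

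Promoter sequences are shown for Fasn, Mlxipl and Thrsp, because the first had the largest fall of the 10 in HKO against Flox with PA, the second is a regulator that fell in the same comparison, and the third rose with PA in Flox and in HKO against Flox with BSA. Each is the 250 bases before the start site in RefSeq on GRCm38.p6, 5′ to 3′ on the gene's strand. Capitals mark matches to the CCAAT box (CCAAT, or ATTGG for the reverse strand) and to the E-box CACGTG. The Fasn stretch lies at chr11:120824548-120824797 on the minus strand, the Mlxipl stretch at chr5:135089640-135089889 on the plus strand, and the Thrsp stretch at chr7:97417551-97417800 on the minus strand.
Fasn: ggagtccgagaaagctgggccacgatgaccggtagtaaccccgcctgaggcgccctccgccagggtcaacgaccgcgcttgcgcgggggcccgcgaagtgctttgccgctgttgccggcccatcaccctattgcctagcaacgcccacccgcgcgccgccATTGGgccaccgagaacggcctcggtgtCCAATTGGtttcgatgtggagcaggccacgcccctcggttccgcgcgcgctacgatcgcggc
Mlxipl: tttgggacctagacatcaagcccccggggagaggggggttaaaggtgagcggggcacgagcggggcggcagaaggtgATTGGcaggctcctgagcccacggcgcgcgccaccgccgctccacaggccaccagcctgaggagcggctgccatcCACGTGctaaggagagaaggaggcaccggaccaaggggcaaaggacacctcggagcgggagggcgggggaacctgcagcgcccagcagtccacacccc
Thrsp: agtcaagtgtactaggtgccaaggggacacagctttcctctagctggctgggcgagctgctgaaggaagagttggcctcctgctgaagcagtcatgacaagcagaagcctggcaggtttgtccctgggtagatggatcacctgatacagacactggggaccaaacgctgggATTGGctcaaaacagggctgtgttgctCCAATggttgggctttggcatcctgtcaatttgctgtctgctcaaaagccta
Fasn has a reverse CCAAT box at -90 from the start site and a forward one at -62 that overlaps a reverse one at -59. Mlxipl has an E-box at -98 and a reverse CCAAT box at -173, and Thrsp has CCAAT boxes at -79 (reverse) and -52 (forward). RefSeq windows of 300 bases, from 250 before to 50 after the start, were at hand for 9 of the 10 genes, 13 windows in all. On either strand, 8 of the 13 windows held CCAAT, against 37.4% of all 32851 mouse windows, and 1 held CACGTG, against 7.15%. The sterol regulatory element, searched as TCACNCCAC, was in 1 of the 13, a second Mlxipl window, against 1.24% of all. The Thrsp start in RefSeq is not the gene end of the deposited table. Other windows also lie away from the deposited gene start. The Acaca window is at chr11:84195188-84195487 (gene start 84129672), and the Acacb window at chr5:114165268-114165567 (gene start 114146535). These matches are letters in a window and show no binding.

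By level, Scd1 stood far above the rest, with a mean of 559 FPKM over the 12 libraries and rank 119 among the tested genes. Acly (154 FPKM) and Me1 (113 FPKM) came next, then Fasn (47.4 FPKM), Mlxipl (24.04 FPKM), Srebf1 (16.02 FPKM) and Thrsp (15.7 FPKM). Acaca (5.94 FPKM), Elovl6 (4.84 FPKM) and Acacb (3.18 FPKM) were lowest. The order depended on the group: in HKO_PA, Thrsp (20.8 ± 3.24 FPKM, SD, n = 3) and Fasn (19.7 ± 8.61 FPKM) were level within their spread, whereas in Flox_BSA Fasn (64.6 ± 0.394 FPKM) lay far above Thrsp (8.60 ± 0.589 FPKM).

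**Figure D1:**
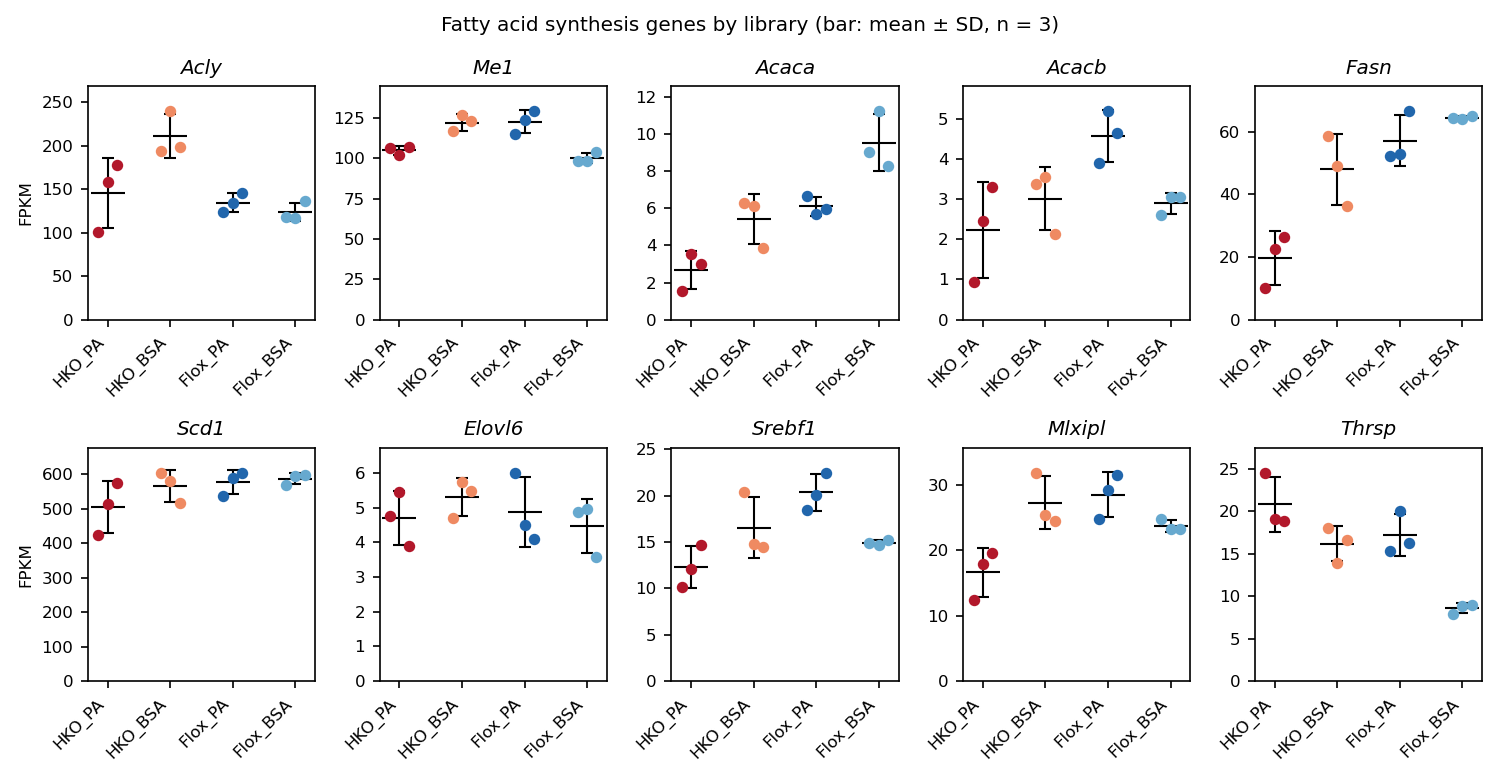
FPKM of the 10 genes in each library; points are libraries, bars the mean ± SD of 3, and groups run from HKO_PA to Flox_BSA. Fasn and Acaca are lowest in HKO_PA, Scd1 and Elovl6 overlap across groups, and Thrsp is lowest in Flox_BSA, at 7.92 to 9.01 FPKM.

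Fold changes are differences on the log2(FPKM + 1) scale, which understates the change of genes near 1 FPKM, and are given with their SE from limma. A gene that rose or fell had an adjusted p under 0.05 over all 9743 genes (limma, Benjamini-Hochberg). In HKO against Flox hepatocytes, both with PA, 5 of the 10 fell (Fasn, Acaca, Acacb, Srebf1 and Mlxipl) and 0 rose, while 18.8% of all tested genes fell and 16.9% rose (35.7% in all). The median over the 10 was -0.46, against 0.003 over all tested genes. Fasn, Acacb, Srebf1 and Mlxipl are among the 2307 tested genes with at least 55% GC, which had a median of -0.22. With the trends of gene length and GC content removed from each library, the median over the 10 was -0.29, against -0.02 over all tested genes. The count that rose was also 0 of 10 at an unadjusted p under 0.05 and 0 of 10 in limma-voom on the computed reads. Without PA, in HKO_BSA against Flox_BSA, Acly and Thrsp rose and Acaca fell, while 9.63% of all tested genes rose and 10.8% fell (20.5% in all). The median over the 10 was 0.15 in that comparison, against 0.04 over all tested genes.

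With PA against BSA in HKO, Fasn and Mlxipl fell (2 of 10, where 1.25% of all tested genes fell) and 0 rose (1.68% of all tested genes, 2.94% in both directions). These calls use 1 spread over all 12 libraries, although HKO libraries varied more than Flox libraries. When HKO libraries alone were fitted, 0 of the 10 fell, and 10 of all 9743 tested genes fell, against 122 with all 12 libraries. The median over the 10 was -0.38, against 0.00 over all tested genes, and with both trends removed it was -0.22, against 0.006. No gene of the 10 rose in limma-voom, while Thrsp was higher at an unadjusted p under 0.05 (1 of 10). With PA against BSA in Flox, Thrsp alone of the 10 rose, where 1.29% of all tested genes rose, and 0 fell (0.913% of all tested genes, 2.21% in both directions). The median over the 10 there was 0.19, against 0.01 over all tested genes. Of those that did not fall, Acaca was lower in Flox at an unadjusted p under 0.05 (1 of 10), and limma-voom gave 0. When Flox libraries alone were fitted, Acacb, Srebf1 and Me1 rose as well, and Acaca fell. In that fit 882 of all 9743 tested genes rose and 661 fell, against 126 and 89 with all 12 libraries. The comparisons share groups: HKO_PA enters both HKO against Flox in PA and PA against BSA in HKO, and the same holds for the other groups.

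**Figure D2:**
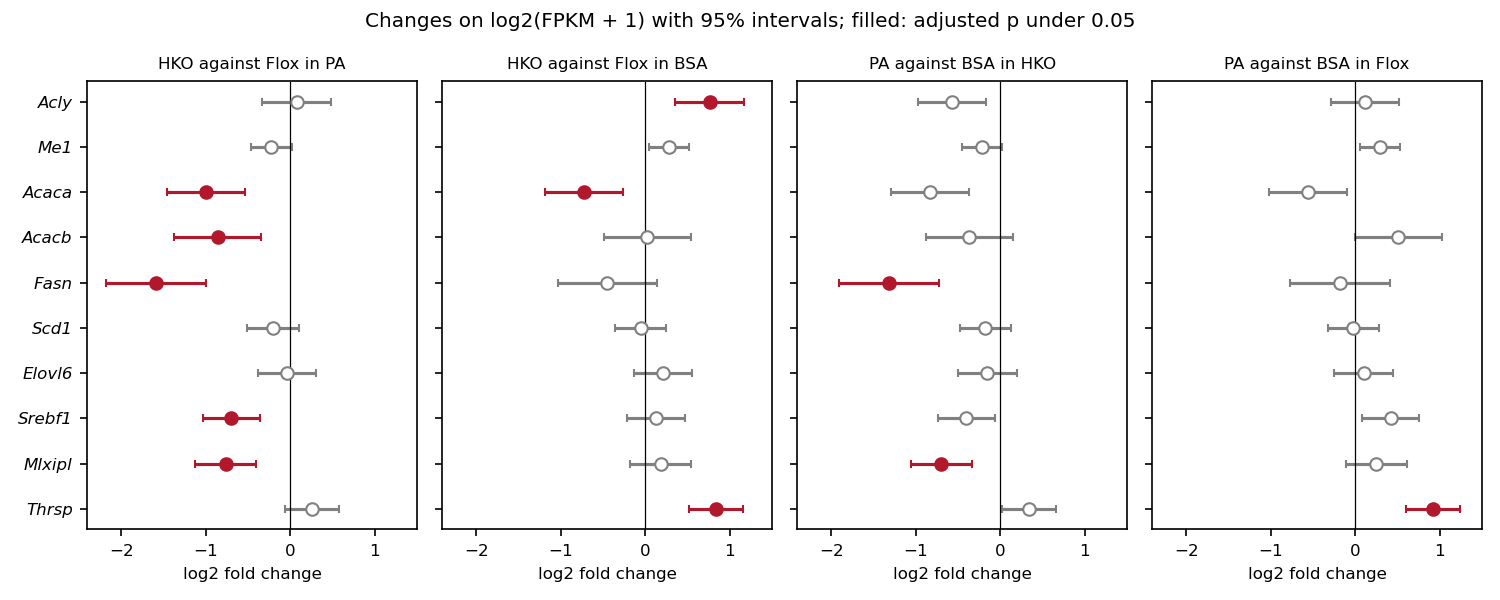
Log2 fold change of each gene in the 4 comparisons, with its 95% interval; filled points had an adjusted p under 0.05. The filled points are 5 lower ones in HKO against Flox in PA, 2 higher and 1 lower in HKO against Flox in BSA, 2 lower in PA against BSA in HKO, and Thrsp, higher, in PA against BSA in Flox.

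Fasn, the enzyme that builds the chain (ENSMUSG00000025153, GRCm38 chromosome 11, 120805846 to 120824547, minus strand), had 10.03, 22.6 and 26.5 FPKM in HKO_PA, 58.8, 49.0 and 36.2 FPKM in HKO_BSA, 52.2, 52.8 and 66.6 FPKM in Flox_PA, and 64.5, 64.2 and 65.0 FPKM in Flox_BSA. The 3 HKO_PA libraries lay below the 9 others, and HKO_PA 1 was the lowest. Between 1475 and 4380 reads stood behind each HKO_PA value, so counting error is small beside the spread of the libraries. Fasn fell to 34.4% of the Flox_PA mean in HKO_PA (log2 -1.59, SE 0.27, adjusted p = 0.000682), a call that held in each of 21 alternatives (-1.84 to -1.03). It fell to 41.0% of the HKO_BSA mean in HKO_PA (log2 -1.32, SE 0.27, adjusted p = 0.0214). That call was lost without HKO_BSA 1 (adjusted p = 0.0565), without HKO_BSA 2 (0.0722), without the filter (0.0936), with genotype and number as a replicate block (0.107) and when HKO libraries alone were fitted (0.177), and with HKO_PA 1 and HKO_BSA 1 left out the value was -0.76 (adjusted p = 0.0137). In BSA, HKO libraries lay below Flox libraries without passing (log2 -0.45, SE 0.27, adjusted p = 0.291), and with PA in Flox the groups overlapped (log2 -0.18, adjusted p = 0.769).

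Gene length and GC content moved with these differences. Fasn is 10947 bases long in the deposited table and has 57.9% GC, at the 96.2 and 90 percentiles of the tested genes. The 128 tested genes of at least 8 kb with at least 55% GC had a median log2 change of -0.56 in HKO against Flox in PA, and 53.1% of them fell. In PA against BSA in HKO the same 128 genes had a median of -0.44, and 5.47% fell. At an unadjusted p under 0.05, 52.3% of the 128 were lower in that comparison, against 11.5% of all tested genes. With both trends removed from each library, an alternative chosen after seeing the data, Fasn was at -1.03 in HKO against Flox in PA (adjusted p = 0.000394) and at -0.95 with PA in HKO (adjusted p = 0.00485).

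**Figure D3:**
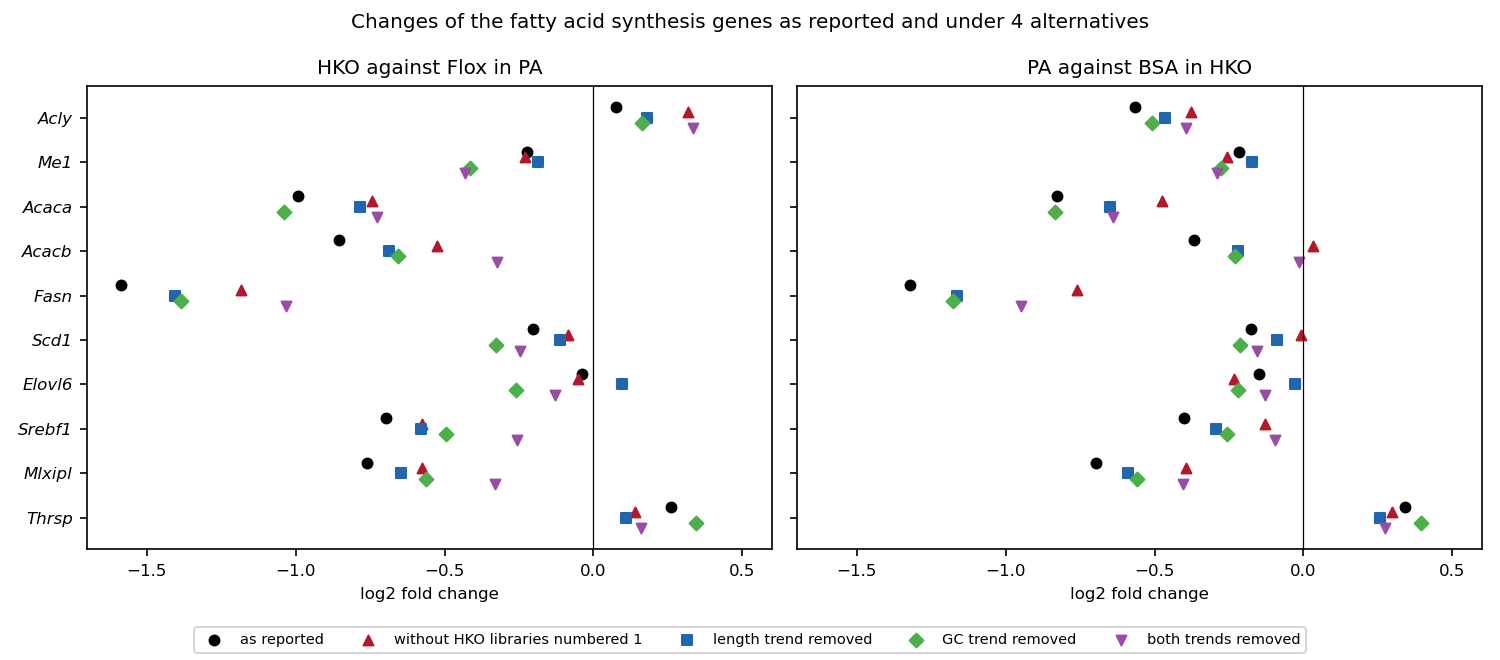
Log2 fold change of each gene as reported and under 4 alternatives: HKO_PA 1 and HKO_BSA 1 left out, or the length trend, the GC trend or both taken out of each library. Left, HKO against Flox in PA; right, PA against BSA in HKO. Fasn stays below -0.7 under each of the 4 in both panels, while Acacb moves to -0.32 with both trends removed on the left.

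Acaca, the carboxylase of the cytosol that feeds the synthase (ENSMUSG00000020532, chromosome 11, 84129672 to 84401651, plus strand), had 1.52, 3.53 and 2.99 FPKM in HKO_PA, 6.29, 6.15 and 3.88 FPKM in HKO_BSA, 6.68, 5.70 and 5.98 FPKM in Flox_PA, and 9.07, 11.3 and 8.29 FPKM in Flox_BSA. All HKO_PA values lay below those of each other group, and all Flox_BSA values above. Acaca fell in HKO against Flox both in PA (log2 -0.99, SE 0.21, adjusted p = 0.00318) and in BSA (log2 -0.72, SE 0.21, adjusted p = 0.0278). The call in PA held in each of 21 alternatives (-1.27 to -0.70). The call in BSA was lost without Flox_BSA 1 (adjusted p = 0.0669), Flox_BSA 2 (0.127) or HKO_BSA 3 (0.134), and without the filter (0.0715). PA gave lower values in both genotypes without passing, at log2 -0.83 in HKO (SE 0.21, adjusted p = 0.0556) and log2 -0.56 in Flox (SE 0.21, adjusted p = 0.232), although the 3 PA libraries lay below the 3 BSA libraries in each. The value in HKO passed in 8 of 22 alternatives, among them limma-voom (adjusted p = 0.0411) and both trends removed (0.00809), and it was 0.297 when HKO libraries alone were fitted. The value in Flox passed when Flox libraries alone were fitted (adjusted p = 0.0157). At 17074 bases Acaca is the longest of the 10, and with both trends removed it was at -0.73 in HKO against Flox in PA (adjusted p = 0.000595).

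Acacb, the carboxylase of the mitochondrial outer membrane, whose malonyl-CoA restrains fatty acid entry into mitochondria (ENSMUSG00000042010, chromosome 5, 114146535 to 114250761, plus strand), had its highest levels in Flox_PA. It had 3.90, 5.19 and 4.63 FPKM in Flox_PA, against 2.60, 3.05 and 3.05 FPKM in Flox_BSA, where the PA libraries were all higher (log2 0.51, SE 0.24, adjusted p = 0.317). Fitted on Flox libraries alone, Acacb rose with PA (adjusted p = 0.018). It had 0.943, 2.45 and 3.29 FPKM in HKO_PA, against 3.37, 3.54 and 2.12 FPKM in HKO_BSA, where the groups overlapped (log2 -0.37, SE 0.24, adjusted p = 0.387). Acacb fell in HKO against Flox in PA (log2 -0.86, SE 0.24, adjusted p = 0.0141). Without Flox_PA 2 the adjusted p was 0.0538, without the filter it was 0.0533, without HKO_PA 1 the value was -0.53 (adjusted p = 0.0441), and with both trends removed it was -0.32 (adjusted p = 0.121). Acacb is 9632 bases long with 56.7% GC.

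The ratio of Acaca to Acacb within a library was 1.61, 1.44 and 0.907 in HKO_PA, 1.87, 1.74 and 1.83 in HKO_BSA, 1.71, 1.10 and 1.29 in Flox_PA, and 3.49, 3.69 and 2.72 in Flox_BSA. Flox_BSA stood above all other groups, at a median of 3.49 against 1.29 in Flox_PA. For Flox_PA against Flox_BSA, for HKO_BSA against Flox_BSA and for HKO_PA against HKO_BSA the groups did not overlap (two-sided exact permutation p = 0.1 each, the smallest that 3 against 3 allows, adjusted p = 0.12 over 12 such tests). HKO_PA and Flox_PA overlapped (exact p = 0.9).

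Acly, which supplies the acetyl-CoA (ENSMUSG00000020917, chromosome 11, 100476353 to 100528000, minus strand), had its highest levels in HKO_BSA. It had 101, 159 and 178 FPKM in HKO_PA, 195, 240 and 199 FPKM in HKO_BSA, 124, 134 and 146 FPKM in Flox_PA, and 119, 117 and 136 FPKM in Flox_BSA. The HKO_BSA libraries were the highest 3 of the 12. Acly rose in HKO against Flox in BSA (log2 0.76, SE 0.19, adjusted p = 0.0102), and with quantile normalization this was 0.56 (adjusted p = 0.095). In PA the genotypes overlapped (log2 0.07, 95% interval -0.33 to 0.48). With PA in HKO all 3 libraries lay below the BSA libraries without passing (log2 -0.57, SE 0.19, adjusted p = 0.118).

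Me1, cytosolic malic enzyme (ENSMUSG00000032418, chromosome 9, 86581371 to 86695953, minus strand), had small differences between groups that did not overlap. It had 106, 102 and 107 FPKM in HKO_PA, 117, 127 and 123 FPKM in HKO_BSA, 115, 124 and 129 FPKM in Flox_PA, and 98.7, 98.3 and 104 FPKM in Flox_BSA. PA values lay above BSA values in Flox (log2 0.29, SE 0.11, adjusted p = 0.232) and below them in HKO (log2 -0.22, SE 0.11, adjusted p = 0.28). HKO values lay above Flox values in BSA (log2 0.28, adjusted p = 0.0894) and below them in PA (log2 -0.22, adjusted p = 0.13), and none of the 4 passed. Fitted on Flox libraries alone, Me1 rose with PA (adjusted p = 0.0306).

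Scd1, the main liver desaturase (ENSMUSG00000037071, chromosome 19, 44394451 to 44407709, minus strand), had 425, 513 and 575 FPKM in HKO_PA, 604, 580 and 515 FPKM in HKO_BSA, 538, 590 and 604 FPKM in Flox_PA, and 569, 594 and 597 FPKM in Flox_BSA. The groups overlapped in each of the 4 comparisons. The 95% interval of its change was -0.51 to 0.10 in HKO against Flox in PA and -0.48 to 0.13 with PA in HKO, so a drop of the size seen for Fasn lay outside both. Quantile normalization gave -0.54 in HKO against Flox in PA (adjusted p = 0.0316). Elovl6, the elongase that takes palmitate to stearate (ENSMUSG00000041220, chromosome 3, 129532355 to 129638495, plus strand), had 4.77, 5.44 and 3.89 FPKM in HKO_PA, 4.70, 5.74 and 5.47 FPKM in HKO_BSA, 6.01, 4.50 and 4.11 FPKM in Flox_PA, and 4.87, 4.97 and 3.57 FPKM in Flox_BSA. Its groups overlapped throughout, with log2 changes between -0.15 and 0.21.

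The ratio of Scd1 to Fasn within a library was 42.4, 22.7 and 21.7 in HKO_PA, 10.3, 11.8 and 14.2 in HKO_BSA, 10.3, 11.2 and 9.07 in Flox_PA, and 8.82, 9.25 and 9.19 in Flox_BSA. HKO_PA lay above both HKO_BSA and Flox_PA (exact permutation p = 0.1 each, the smallest possible, adjusted p = 0.12). The ratio of Acly to Fasn was 10.03, 7.02 and 6.71 in HKO_PA, 3.31, 4.90 and 5.48 in HKO_BSA, 2.37, 2.54 and 2.19 in Flox_PA, and 1.84, 1.82 and 2.10 in Flox_BSA. The 4 groups did not overlap in this ratio (exact permutation p = 0.1 in each of the 4 comparisons, adjusted p = 0.12). A ratio shows unequal change of a pair of genes and not which of them moved. None of the ratios had the length or GC trend removed, and the genes of a pair differ in both. With both trends removed, HKO against Flox in PA was -1.03 for Fasn, -0.25 for Scd1 and 0.33 for Acly. As reported, these were -1.59, -0.20 and 0.07.

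**Figure D4:**
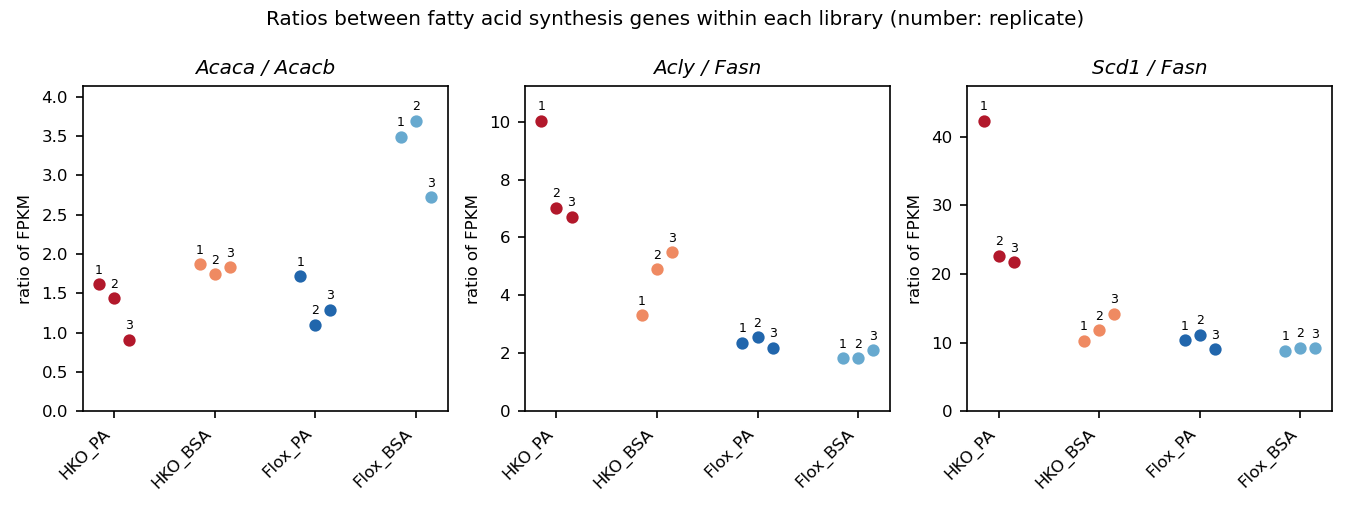
Ratios of FPKM between pairs of the genes within each library (points, numbered by replicate; linear axes from 0). Acaca over Acacb is highest in Flox_BSA (2.72 to 3.69), and Acly over Fasn and Scd1 over Fasn are highest in HKO_PA, led by HKO_PA 1.

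Of the regulators, Mlxipl, which encodes ChREBP (ENSMUSG00000005373, chromosome 5, 135089890 to 135138382, plus strand), had 12.4, 18.0 and 19.5 FPKM in HKO_PA, 31.9, 25.4 and 24.5 FPKM in HKO_BSA, 24.9, 29.2 and 31.6 FPKM in Flox_PA, and 24.8, 23.2 and 23.3 FPKM in Flox_BSA. The HKO_PA libraries lay below all others. Mlxipl fell in HKO against Flox in PA (log2 -0.76, SE 0.17, adjusted p = 0.00357), which held in each of 21 alternatives (-0.88 to -0.33, the last with both trends removed). It fell with PA in HKO (log2 -0.70, SE 0.17, adjusted p = 0.0411), and there 11 of 22 alternatives lost the call, among them HKO libraries fitted alone (adjusted p = 0.296). Leaving out HKO_BSA 1, 2 or 3 gave adjusted p = 0.0769, 0.0814 and 0.0714, and leaving out HKO_PA 1 or 2 gave 0.113 and 0.0754. Leaving out HKO_PA 1 and HKO_BSA 1 gave -0.40 (adjusted p = 0.0633).

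Srebf1, which encodes SREBP-1 (ENSMUSG00000020538, chromosome 11, 60199089 to 60222581, minus strand), had 10.1, 12.1 and 14.6 FPKM in HKO_PA, 20.4, 14.8 and 14.5 FPKM in HKO_BSA, 18.5, 20.1 and 22.5 FPKM in Flox_PA, and 14.9, 14.7 and 15.2 FPKM in Flox_BSA. Flox_PA lay above Flox_BSA and above HKO_PA. Srebf1 fell in HKO against Flox in PA (log2 -0.70, SE 0.16, adjusted p = 0.00435), in each of 21 alternatives, although with both trends removed the size was -0.26 (adjusted p = 0.0173). PA in Flox gave log2 0.42 (SE 0.16, adjusted p = 0.221) and PA in HKO gave log2 -0.40 (SE 0.16, adjusted p = 0.171). Fitted on Flox libraries alone, Srebf1 rose with PA (adjusted p = 0.0159). Srebf1 has 58.4% GC and Mlxipl 56.6%, and the 2307 tested genes with at least 55% GC had a median of -0.22 in HKO against Flox in PA, of which 30.9% fell.

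Thrsp, a nuclear protein induced by thyroid hormone and carbohydrate together with the lipogenic enzymes (ENSMUSG00000035686, chromosome 7, 97412938 to 97417730, minus strand), had its lowest level in Flox_BSA. It had 24.6, 19.1 and 18.9 FPKM in HKO_PA, 18.0, 13.9 and 16.7 FPKM in HKO_BSA, 15.3, 20.04 and 16.3 FPKM in Flox_PA, and 7.92, 8.87 and 9.01 FPKM in Flox_BSA. The Flox_BSA libraries lay below the 9 others. Thrsp rose with PA in Flox (log2 0.92, SE 0.15, adjusted p = 0.00529) and in HKO against Flox in BSA (log2 0.84, SE 0.15, adjusted p = 0.000945), and these calls held in 22 of 22 and 21 of 21 alternatives. With PA in HKO it was higher without passing (log2 0.34, SE 0.15, adjusted p = 0.211), as it was in HKO against Flox in PA (log2 0.26, SE 0.15, adjusted p = 0.186). At 2189 bases Thrsp is the shortest of the 10.

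Counting groups that did not overlap, with PA in Flox 5 of the 10 genes were higher and 1 lower, where 22.1% and 16.9% of all tested genes were (39% in all). The PA libraries of HKO had 1 higher and 5 lower, where 9.1% were on each side (18.2% in all). Between HKO and Flox in BSA 3 were higher and 2 lower, where 19.7% and 18% were (37.7% in all). Between HKO and Flox in PA 0 were higher and 6 lower, where 26% were on each side (52% in all). Mlxipl and Me1 were separated with PA in both genotypes and in opposite directions, lower in HKO and higher in Flox.

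Whether PA acted differently in the genotypes was tested by the interaction, the PA effect in HKO minus that in Flox. All 10 values were negative, between -1.14 for Fasn and -0.15 for Scd1, with a median of -0.63 against 0.02 over all tested genes. With both trends removed the median was -0.43, against 0.015 over all tested genes. None of the 10 passed (0 of 10, where 0.103% of all tested genes fell and 0.164% rose, 0.267% in all), and limma-voom also gave 0. The smallest adjusted p was that of Mlxipl (log2 -0.94, SE 0.24, adjusted p = 0.101), followed by Srebf1 (log2 -0.82, SE 0.22, adjusted p = 0.118) and Me1 (log2 -0.51, SE 0.16, adjusted p = 0.158). At an unadjusted p under 0.05, 7 of the 10 were lower, against 11% of all tested genes, and 0 were higher, against 6.41%. The 128 long genes of high GC had a median of -0.54, and 38.3% of them were lower at that level. Without HKO_PA 3, 2 of the 10 passed, Srebf1 (-0.95, adjusted p = 0.0409) and Mlxipl (-1.07, adjusted p = 0.0371), and of all 9743 tested genes 188 then fell, against 10 with every library.

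The counts of the 5 lists below stand against the shares of all tested genes, of which 9.63% rose and 10.8% fell in HKO against Flox in BSA, 16.9% rose and 18.8% fell in PA, 1.68% rose and 1.25% fell with PA in HKO, and 1.29% rose and 0.913% fell with PA in Flox. No difference between lists was tested. Around the synthase, genes that bring citrate, acetyl-CoA and NADPH were spread in both directions. Of 15 tested supply genes (18 listed), 0 passed with PA in Flox, where 5 were higher at an unadjusted p under 0.05 and limma-voom called 1. With PA in HKO 1 rose, Pdk4, a kinase that switches off pyruvate dehydrogenase, with 2.36 ± 0.309 FPKM in HKO_PA and 0.708 ± 0.0463 FPKM in HKO_BSA (SD, n = 3, adjusted p = 0.000245). Between the genotypes in BSA 2 rose in HKO, Pdk2 (log2 1.04, SE 0.19) and Slc25a1, the mitochondrial citrate carrier (161 ± 44.1 FPKM in HKO_BSA and 107 ± 3.55 FPKM in Flox_BSA, SD, n = 3, adjusted p = 0.0338), and Me2, mitochondrial malic enzyme, fell (log2 -0.65, SE 0.11). Slc25a1 lost its call without Flox_BSA 1, 2 or 3 (adjusted p = 0.0847, 0.0931 and 0.0904) and without HKO_BSA 1 (log2 0.34, adjusted p = 0.0641). With PA, 3 rose in HKO against Flox, among them Mdh1, cytosolic malate dehydrogenase (log2 1.02, SE 0.17), and Pdk4 (log2 0.75, SE 0.11), and 6 fell, among them Aacs, which activates acetoacetate for lipid synthesis (log2 -0.77, SE 0.16), and Me2 (log2 -0.62, SE 0.11). The 6 that fell were 3 without Flox_PA 2, Flox_PA 3, HKO_PA 1 or HKO_PA 2, and 7 without Flox_PA 1 or HKO_PA 3. The 2 that rose in BSA were 4 without HKO_BSA 1. The counts of this list in BSA, and the 3 that rose in PA, are near the shares of all tested genes. The median of the list was 0.32 with PA in Flox, -0.06 with PA in HKO, 0.21 in HKO against Flox in BSA and -0.31 in HKO against Flox in PA.

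Among 20 tested genes of chain elongation, desaturation and acyl-CoA formation (22 listed), 0 rose and 1 fell with PA in Flox, the elongase Elovl7 (log2 -0.71, SE 0.17, adjusted p = 0.0455), which lost the call when any 1 of the 6 Flox libraries was left out (adjusted p = 0.101 to 0.195). Within HKO, 0 of the 20 passed with PA; 1 was lower at an unadjusted p under 0.05 and limma-voom called 0. Set against Flox, 6 rose and 2 fell in HKO with BSA, and with PA 5 rose and 2 fell. Hsd17b12, the ketoreductase of the elongation cycle, rose in both: it had 141 ± 11.3 FPKM in HKO_PA and 60.1 ± 7.52 FPKM in Flox_PA (SD, n = 3, log2 1.22, adjusted p = 0.00106), and log2 0.94 in BSA (adjusted p = 0.00795). Tecr, the reductase that completes that cycle, rose in BSA (log2 0.68, SE 0.17) and Elovl7 in PA (log2 0.69, SE 0.17). Scd2, the paralog of Scd1, fell in both, to 0.981 ± 0.29 FPKM in HKO_PA against 2.56 ± 0.247 FPKM in Flox_PA (SD, n = 3), and by log2 -0.97 in BSA. Acsl1, which activates long-chain fatty acids, fell in PA (log2 -0.62, SE 0.15, adjusted p = 0.00553) and in BSA (log2 -0.49, SE 0.15, adjusted p = 0.029), the second lost without Flox_BSA 1, 2 or 3 (0.0513, 0.119 and 0.0706) or HKO_BSA 2 or 3 (0.054 and 0.091). The 6 that rose in BSA were 3 without Flox_BSA 1, Flox_BSA 2 or HKO_BSA 3, and the 5 that rose in PA were 3 without any of Flox_PA 1, 2 and 3 or HKO_PA 2 and 3.

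Of 25 tested regulators of lipogenic transcription and of acetyl-CoA carboxylase (30 listed), 0 passed with PA in either genotype. At an unadjusted p under 0.05, 3 were higher in Flox, and 1 was higher and 4 lower in HKO, while limma-voom called 0 in both. Of the same 25, in HKO against Flox 3 rose and 2 fell with BSA, and with PA 3 rose and 7 fell. The counts with BSA and the 3 that rose with PA are near the shares of all tested genes. Insig2, which holds SREBP in the endoplasmic reticulum, rose in both, with 26.1 ± 4.71 FPKM in HKO_PA and 9.62 ± 1.22 FPKM in Flox_PA (SD, n = 3, log2 1.35, adjusted p = 9.3e-05), and log2 1.26 in BSA (adjusted p = 0.000173). Pparg, a nuclear receptor of fat storage, rose in both as well (log2 0.96 in PA and 0.90 in BSA, SE 0.15). Mid1ip1, a partner of Thrsp that promotes polymerization of the carboxylase, fell in PA, with 51.8 ± 4.93 FPKM in HKO_PA and 95.3 ± 2.76 FPKM in Flox_PA (SD, n = 3, log2 -0.87, adjusted p = 0.000406). Med15, a Mediator subunit that SREBP binds, fell in PA (log2 -0.95, SE 0.17). In BSA, Nr1h3, the liver X receptor alpha, and Mid1ip1 fell (log2 -0.54, adjusted p = 0.0155, and log2 -0.48, adjusted p = 0.0288). These 2 calls were lost together without Flox_BSA 1, Flox_BSA 2, HKO_BSA 2 or HKO_BSA 3 (adjusted p = 0.0577 to 0.121), and that of Mid1ip1 also without Flox_BSA 3 (0.0791). The 7 that fell in PA were 3 without Flox_PA 2, Flox_PA 3 or HKO_PA 1, and 4 without Flox_PA 1.

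The 12 tested glycolysis and fructose genes linked to ChREBP (13 listed) were mixed. Fgf21, a liver hormone, fell with PA in both genotypes, to 21.0 ± 2.41 FPKM in HKO_PA against 37.8 ± 5.29 FPKM in HKO_BSA and to 14.2 ± 1.14 FPKM in Flox_PA against 36.7 ± 0.927 FPKM in Flox_BSA (SD, n = 3 each). It was the 1 gene of the list past the test in each, and when HKO libraries alone were fitted its adjusted p there was 0.124. Against Flox_BSA, 4 rose in HKO_BSA, led by G6pc, which releases glucose (log2 2.10, SE 0.27), and Slc2a2, the liver glucose transporter (log2 2.01, SE 0.26), and 2 fell, Txnip (log2 -0.62, SE 0.16) and its relative Arrdc4 (log2 -0.52, SE 0.11). In PA 4 rose, among them Slc2a2 (log2 1.33, SE 0.26). In the same comparison 3 fell, led by Arrdc4 (log2 -0.74, SE 0.11) and Pklr, liver pyruvate kinase, with 257 ± 75.9 FPKM in HKO_PA and 389 ± 42.5 FPKM in Flox_PA (SD, n = 3, log2 -0.64, adjusted p = 0.0352). Pklr lost the call without Flox_PA 2 or 3 (adjusted p = 0.107 each), without HKO_PA 1 (log2 -0.38, adjusted p = 0.147) and without HKO_PA 2 (0.0503). The 3 that fell were 2 without Flox_PA 2, Flox_PA 3, HKO_PA 1 or HKO_PA 2. With PA in HKO 2 of the list fell without HKO_BSA 1 or HKO_PA 3.

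For comparison, 19 cholesterol genes linked to SREBP were counted in the same way. With PA in Flox 4 rose, led by Dhcr7 (log2 1.33, SE 0.20) and Mvd (log2 0.92, SE 0.13), and 0 fell, also at an unadjusted p under 0.05 and in limma-voom. The 4 were 2 without Flox_BSA 1, Flox_BSA 2, Flox_PA 2 or Flox_PA 3. With PA in HKO 0 passed, 5 were higher at an unadjusted p under 0.05, and limma-voom called 0. Against Flox_BSA, 10 rose in HKO_BSA, led by Cyp51 and Pmvk (log2 1.04 and 1.03), and 0 fell, unadjusted or in limma-voom. In PA 9 rose, led by Msmo1 (log2 1.40, SE 0.29) and Sc5d (log2 1.34, SE 0.23), and 2 fell. The 9 that rose were 6 without Flox_PA 1, and the 2 that fell were 4 without HKO_PA 3 and 1 without Flox_PA 3. The median of the list was 0.37 in HKO against Flox in PA, where that of the 10 fatty acid genes was -0.46. For the interaction 0 genes passed in any of the 5 lists, and limma-voom called 0. At an unadjusted p under 0.05 the numbers lower were 5 of the supply list, 1 of elongation, 4 of the regulators, 4 of the ChREBP-linked list and 6 of the cholesterol list. Without HKO_PA 3, 2 of the supply list and 3 of the cholesterol list fell for the interaction, and with PA in HKO 2 of the supply list, 1 regulator and 1 cholesterol gene fell.

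The 5 tested genes whose profile over the 12 libraries was most like that of Fasn, by Pearson correlation on log2(FPKM + 1), were Zswim8 (0.990), Ube2o (0.989), C3 (0.984), Tep1 (0.978) and Rrp12 (0.977). They are given as a description, since the points are 4 groups of 3 libraries, and no gene of the 10 is among them. C3, a complement protein, had means of 357 FPKM in HKO_PA, 534 FPKM in HKO_BSA, 623 FPKM in Flox_PA and 648 FPKM in Flox_BSA. The 5 are 8590 (Zswim8), 5288 (Ube2o), 5143 (C3), 9568 (Tep1) and 4319 (Rrp12) bases long.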

How the data were processed

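RNA was sequenced from 12 libraries of primary mouse hepatocytes. The authors deposited a table of FPKM per gene and library, on GRCm38 (mm10) per the submitters' processing notes; the sources used here name no aligner, counter or use of strand. Libraries were made with an NEBNext Ultra kit, per the labels' protocols. Multiplied by gene length, 100% of values up to 1000 reads were whole multiples (within 0.01) of 1 step per library, which gave 15020982 to 18418586 reads in genes. Tests used limma 3.58.1 in R 4.3.3 on log2(FPKM + 1), keeping genes that averaged 1 FPKM or more, with 4 group means over all 12 libraries, a variance prior with a trend, and Benjamini-Hochberg adjustment over the 9743 genes. The same fit was tested on simulated data with the spread of each group: it recovered most changed genes, but for PA against BSA in HKO it also called more unchanged genes than the threshold allows, so calls in that comparison are given beside a fit of HKO libraries alone. GC content came from GENCODE M21 transcripts for 99.93% of tested genes. Promoter windows came from RefSeq. Ratios were compared by exact permutation tests in Python 3.11.15.

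The text names the 10 genes in all comparisons and, of each of 5 lists, the 2 genes per direction and comparison with the highest absolute change among those that passed, plus the 5 genes most correlated with Fasn. A few genes that this rule picks are not reported here. The genes and lists were chosen with earlier results of these data known. Alternatives were a pseudocount of 0.1, no filter or one at 5 FPKM, quantile and trimmed-mean scaling, a robust prior, only the groups compared, array weights estimated gene by gene, limma-voom on computed reads, replicate blocks, length and GC trends removed, and libraries left out. Removing both trends together was chosen after seeing the data.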

Additional observations from a re-analysis of the deposited data

Results flagged for a closer look

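With PA, Mlxipl was lower in every HKO library than in each HKO_BSA library, and higher in every Flox library than in each Flox_BSA library. The difference between these effects was tested by the interaction, which was -0.945 on the log2 scale and did not pass (limma, adjusted p = 0.101). Me1 had the same opposite separation with PA, lower in HKO and higher in Flox, and was also separated in opposite directions by genotype, lower in HKO with PA and higher in HKO with BSA. Its interaction was -0.506 (limma, adjusted p = 0.158). The 2307 tested genes with at least 55% GC, Mlxipl (56.6%) among them, also moved in opposite directions. Their medians were 0.125 with PA in Flox, -0.115 with PA in HKO and -0.241 for the interaction. With the GC trend removed, Mlxipl was at 0.126 with PA in Flox and -0.560 in HKO. Me1, with 45.1% GC, was then at 0.399 and -0.278. The part of GC content in these differences was not tested.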

How the results depend on the processing

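The count of fatty acid genes that fell with PA in HKO, 2 as reported, was 0 without the filter and with only the groups compared, 4 with array weights, and 1 without HKO_PA 1 and HKO_BSA 1. The count that rose with PA in Flox, 1 as reported, was 4 with only the groups compared, 5 with array weights, 2 with the GC trend removed, 3 with both trends removed and 4 without HKO_PA 1 and HKO_BSA 1; 1 fell (0 as reported) with only the groups compared, with array weights and without HKO_PA 1 and HKO_BSA 1. In HKO against Flox in BSA 1 rose under quantile normalization (2 as reported), 0 fell without the filter, and 2 fell with array weights and without HKO_PA 1 and HKO_BSA 1 (1 as reported). For the interaction 5 fell with array weights, 1 with the GC trend removed and 2 with both trends removed. These settings moved the calls over all 9743 genes too. With PA in Flox, 126 rose as reported, 882 with only the groups compared, 1963 with array weights, 208 with the GC trend removed, 278 with both removed and 762 without HKO_PA 1 and HKO_BSA 1. For the interaction, 10 fell as reported, 1010 with array weights, 41 with the GC trend removed and 106 with both removed. With PA in HKO, 122 fell as reported, 10 with only the groups compared and 871 with array weights. With 1 library left out at a time, the number that fell ranged from 0 to 4 with PA in HKO, 0 to 1 in HKO against Flox in BSA, 4 to 5 in HKO against Flox in PA and 0 to 2 for the interaction, and the number that rose from 2 to 3 in HKO against Flox in BSA; it was 1 throughout with PA in Flox. The cause was not tested.

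Deviations of same-numbered libraries had correlations of 0.203, -0.015 and 0.316 with PA in Flox, -0.243, 0.349 and -0.484 with PA in HKO, 0.14, 0.0441 and 0.182 in HKO against Flox in BSA, and 0.276, -0.212 and 0.363 in HKO against Flox in PA. Libraries of different number ranged from -0.3 to 0.159 with PA in Flox and from -0.211 to 0.509 with PA in HKO. With 3 libraries a group, these values cannot tell whether the numbers pair the samples, and the labels do not say. With the number as a replicate block 1 gene of the 10 fell with PA in HKO, and Mlxipl no longer passed (adjusted p = 0.0728). The count was also 1 with this block and the length trend removed (Mlxipl 0.0786), and it was 0 with genotype and number as a block (Fasn 0.107, Mlxipl 0.139). The replicate block changed the count in no other comparison of the 10 genes.

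Reversed values were all of changes that had not passed. Under quantile normalization Acly was at -0.14 and Elovl6 at 0.047 in HKO against Flox in PA. With array weights Scd1 was at 0.0023 with PA in Flox, Acacb at 0.10 with PA in HKO, Acacb at -0.22 and Srebf1 at -0.017 in HKO against Flox in BSA, Elovl6 at 0.10 in HKO against Flox in PA, and Acaca at 0.35 for the interaction. Elovl6 in HKO against Flox in PA was at 0.0953 with the length trend removed, with or without the number as a block. With the GC trend removed Scd1 was at 0.029 with PA in Flox (0.0271 with both trends removed) and Acacb at -0.037 in HKO against Flox in BSA. With 1 library left out at a time, the change in HKO against Flox in BSA ranged from -0.0762 to 0.194 for Acacb, -0.101 to 0.0136 for Scd1 and -0.0246 to 0.207 for Srebf1. In HKO against Flox in PA it ranged from -0.132 to 0.0962 for Elovl6 and -0.0885 to 0.319 for Acly, and with PA in Flox from -0.0356 to 0.193 for Elovl6 and -0.0587 to 0.0257 for Scd1. Without HKO_PA 1 and HKO_BSA 1, Acacb was at 0.0338 with PA in HKO and -0.0496 in HKO against Flox in BSA, Srebf1 at -0.0246 in that comparison, and the interaction was 0.0840 for Acaca and 0.0155 for Scd1. Of the values for single genes, 1869 kept direction and side of the threshold, 68 lost the call, 48 gained one and 30 reversed. The 3 libraries per group limit the precision; reads per library were fewest in HKO_PA 1 for Acacb, at 122.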
